A study of Danio rerio with 2 samples.

Results

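The 54 genes described here, all of the 54 symbols in the set and 54 of the 37423 genes in the count tables, encode the machinery of the G2 phase and of mitosis. They were listed by symbol for their known roles, with earlier results of these data known. Their levels were examined in dissociated zebrafish heads at 3 dpf. The library labelled mutant held 10 pooled heads of polr3a sa907/sa907 fish and the library labelled wild-type held 10 pooled heads of polr3a +/+ fish, with 1 library per genotype. Both genotypes came from crosses of polr3a sa907/+ parents that carried Tg(fli1a:egfp) or Tg(sox10:mRFP). At 1 dpf the embryos were screened for GFP and RFP. Both pools are therefore taken to carry both transgenes. polr3a encodes the largest subunit of RNA polymerase III, and heads were cut off at the pectoral fin. Pooling leaves no spread between animals, so no test between the genotypes was possible, and every interval below covers counting error alone, at 95%.

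Progression through G2 and mitosis follows a wave of transcription. Cyclins A and B accumulate and activate Cdk1, the kinase that drives entry into mitosis, condensins compact the chromosomes, microtubule motors build the spindle, and the spindle checkpoint holds back the separation of the chromatids until every kinetochore is attached. Most of these transcripts are low in cells that have left the cycle, which in a head at this stage include the photoreceptors and most neurons, and are high in neural progenitors and in the growing mesenchyme. Hmgb2 proteins, which bend DNA, and lamin B1, a protein of the nuclear lamina, belong to the set but are also present outside mitosis.

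After the filters of the study and the removal of the 10% of cells with the highest doublet scores in each library, 23809 cells with 114034626 transcript molecules (unique molecular identifiers, UMIs) remained in the mutant-labelled library and 33296 cells with 139635838 UMIs in the wild-type-labelled library. The median cell held 3913 and 3322 UMIs. Levels are UMI counts pooled over cells and scaled to 1000000 UMIs (CPM), with each molecule counted once, so they carry no term for gene length. The mutated gene itself was not lower in the library labelled mutant, with 16.6 CPM there and 13.8 CPM in the library labelled wild-type (log2 ratio 0.27, 0.18 to 0.36). Tags from 3' ends do not test for the sa907 allele, and the libraries are therefore called by their labels. The libraries shared 405 barcodes. Barcodes with over 20000 UMIs or over 5000 genes, which the filters removed, held 38.3% of all UMIs of the set without hmgb2a and hmgb2b in the mutant-labelled library and 29.9% in the wild-type-labelled library.

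Transcripts of the set were lower in the library labelled mutant. The 54 genes together stood at 5072 CPM in the mutant-labelled library, against 6503 CPM in the wild-type-labelled library (log2 ratio -0.36, -0.36 to -0.35). The genes hmgb2a and hmgb2b gave 59.4% of these UMIs over both libraries, and without them the other 52 genes stood at 2044 and 2648 CPM (log2 ratio -0.37, -0.38 to -0.37). Of the 54 genes, 33 had a ratio below 0.8, where 7.34% of the 21258 genes with at least 100 UMIs did, and 1 had a ratio above 1.2, where 18.8% of all genes did. That 1 gene was birc5b, with only 52 and 53 UMIs and an interval on both sides of 0. The log2 ratio was below 0 for 52 genes, with the whole interval below 0 for 51. The shares of all genes with such ratios or intervals are not given here. These counts therefore do not show how the set stood beside other genes. The median of the 54 was -0.36, beside 0.07 for all genes, of which 5% were under -0.42. Fewer cells with these transcripts and less RNA in each cell cannot be told apart in such sums.

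**Figure D1:**
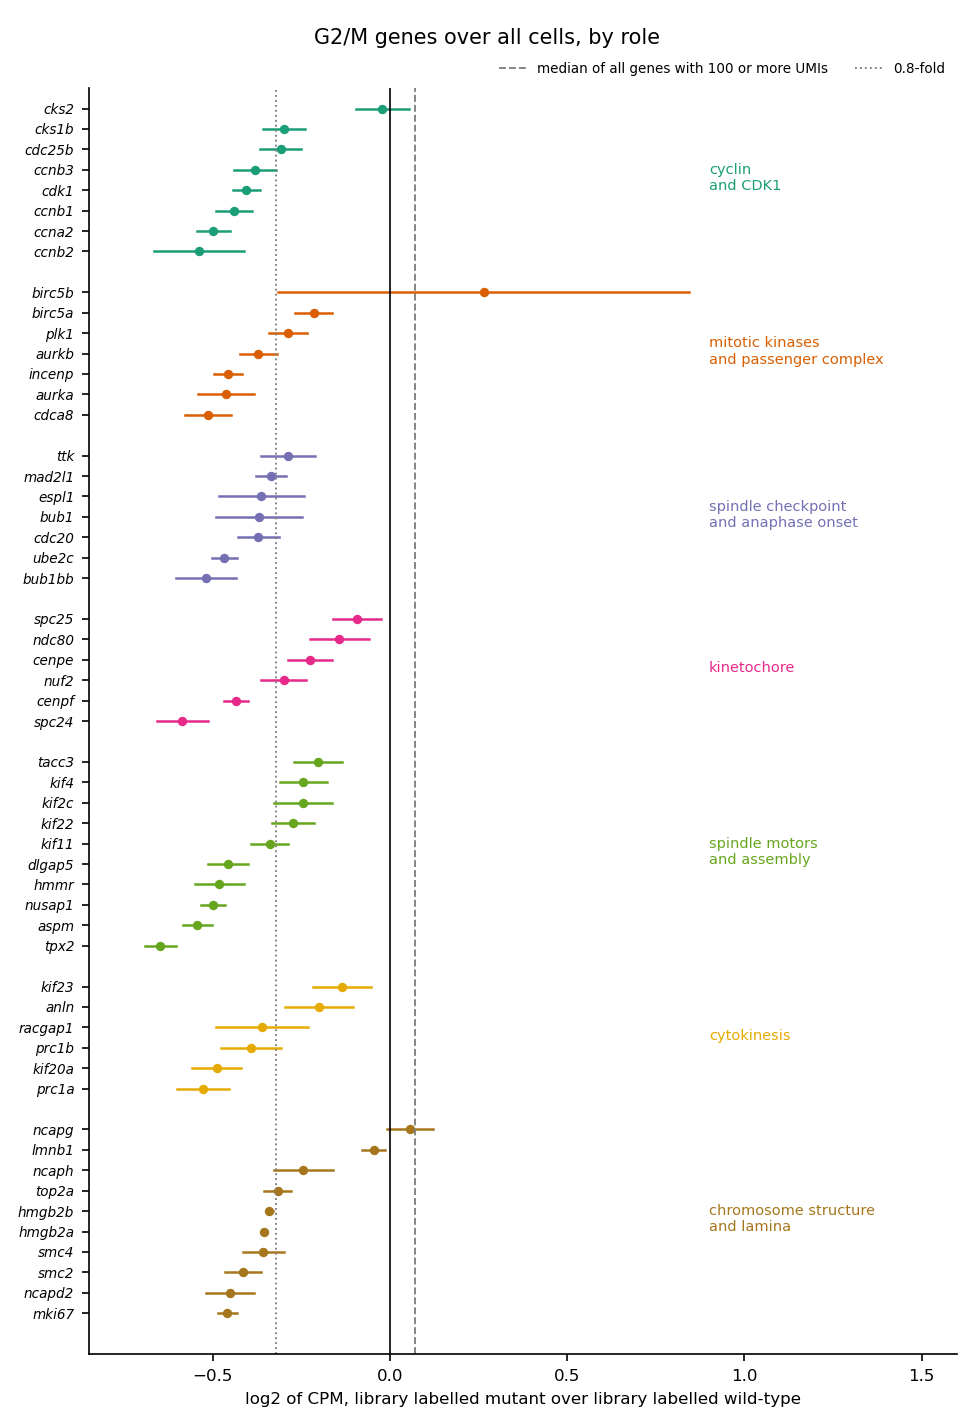
Log2 ratio of CPM, library labelled mutant over library labelled wild-type, for each of the 54 genes by role. Points are the ratios over all cells, bars the 95% counting intervals, the dashed line the median of all genes (0.07) and the dotted line the 0.8-fold limit. 33 points lie left of the dotted line, and tpx2 (-0.65) is the farthest.

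Among the cyclins and their partners, 5 of 8 genes were below 0.8-fold. Beside this count and those of the other roles stand 7.34% of all genes. cdk1 was at 74.0 CPM in the mutant-labelled library and 98.0 CPM in the wild-type-labelled library (log2 ratio -0.41, -0.44 to -0.37). The cyclin genes went the same way. ccna2, which acts in S phase and G2, was at 52.1 and 73.6 CPM (-0.50, -0.55 to -0.45), and ccnb1, ccnb2 and ccnb3, which encode the mitotic B cyclins, were at -0.44, -0.54 and -0.38. cks2, one of a pair of genes for small Cdk-binding proteins, stood at 23.1 and 23.5 CPM (-0.02, -0.10 to 0.05), while its paralog cks1b was at -0.30 (-0.36 to -0.24). cdc25b, the phosphatase that activates Cdk1, was at -0.31.

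The mitotic kinases and the chromosomal passenger complex had 4 of 7 genes below 0.8-fold. incenp, the scaffold of the passenger complex, was at 71.3 CPM in the mutant-labelled library and 97.8 CPM in the wild-type-labelled library (-0.46, -0.50 to -0.42). aurkb, its kinase, was at 42.5 and 55.0 CPM (-0.37, -0.42 to -0.32). The other passenger genes differed from each other, with cdca8 at -0.51 (-0.58 to -0.45) and birc5a, a survivin gene, at -0.22 (-0.27 to -0.16). Of the spindle checkpoint and anaphase genes, 6 of 7 were below 0.8-fold, the exception being ttk, a checkpoint kinase (-0.29). ube2c, which encodes the ubiquitin-conjugating enzyme of the anaphase-promoting complex, was at 93.2 and 129 CPM (-0.47, -0.50 to -0.43), and mad2l1, which encodes the inhibitor of that complex, at 63.6 and 80.3 CPM (-0.34, -0.38 to -0.29).

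Of the kinetochore genes, 2 of 6 were below 0.8-fold. Their log2 ratios lay between -0.59 and -0.09, a range much like that of the cyclins and their partners (-0.54 to -0.02). cenpf was at 99.7 CPM in the mutant-labelled library and 134.7 CPM in the wild-type-labelled library (-0.44, -0.47 to -0.40), and cenpe, a kinetochore motor, at 30.5 and 35.7 CPM (-0.23, -0.29 to -0.16). The 4 subunits of the Ndc80 complex, which joins kinetochores to microtubules in fixed proportions, did not share a ratio. spc24 was at 21.2 and 31.9 CPM (-0.59, -0.66 to -0.51) and nuf2 at -0.30, while ndc80 was at -0.14 (-0.23 to -0.06) and spc25 at 27.4 and 29.2 CPM (-0.09, -0.16 to -0.03). The intervals of spc24 and spc25 are far apart.

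Spindle genes had the lowest ratio of summed levels among the 7 role groups, with sums of 422 CPM in the mutant-labelled library and 575 CPM in the wild-type-labelled library (-0.45, -0.46 to -0.43), with 6 of 10 below 0.8-fold. The lowest ratio of the whole set was that of tpx2, which activates Aurora A on the spindle, at 54.2 and 85.0 CPM (-0.65, -0.69 to -0.60). aspm, a spindle pole protein known from microcephaly, was at 63.8 and 93.0 CPM (-0.54, -0.59 to -0.50), and nusap1, which bundles spindle microtubules, at 93.7 and 132.5 CPM (-0.50, -0.53 to -0.47). The motors kif4, kif2c and kif22 lay between -0.27 and -0.24. In cytokinesis 4 of 6 genes were below 0.8-fold. prc1a, which bundles the microtubules of the central spindle, was at 20.3 and 29.2 CPM (-0.53, -0.60 to -0.45), kif20a at 23.6 and 33.2 CPM (-0.49, -0.56 to -0.42), and kif23, the motor of centralspindlin, at -0.14 (-0.22 to -0.05).

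Chromosome and lamina genes had 6 of 10 below 0.8-fold. hmgb2a was at 1661 CPM in the mutant-labelled library and 2124 CPM in the wild-type-labelled library (-0.35, -0.36 to -0.35), and hmgb2b at 1367 and 1731 CPM (-0.34, -0.35 to -0.33). mki67, the gene of the Ki-67 antigen, was at 154.8 and 212.9 CPM (-0.46, -0.49 to -0.43). The condensin genes again differed among themselves. smc2, smc4 and ncapd2 were at -0.41, -0.36 and -0.45, ncaph was at -0.25, and ncapg stood at 31.1 and 29.9 CPM (0.06, -0.01 to 0.12). lmnb1 was at 113.9 and 117.6 CPM (-0.05, -0.08 to -0.01). The highest ratios of well measured genes were thus those of ncapg, cks2, lmnb1 and spc25. Reads of close paralogs, such as hmgb2a and hmgb2b or prc1a and prc1b, may have been assigned unequally in counting.

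The transcripts of the set sat in a minority of cells. When each cell was thinned at random to 1000 UMIs, at least 5 of the 52 genes (hmgb2a and hmgb2b not counted) were found in 1820 of 22142 cells of the mutant-labelled library, 8.22% (7.86 to 8.59), and in 3452 of 30678 cells of the wild-type-labelled library, 11.3% (10.9 to 11.6). Without thinning, the shares were 14.96% and 18.5%. Gated photoreceptors gave 2.25% and 3.61% at 1000 UMIs, and 4.54% and 5.69% without thinning. Their median depths before thinning were 3802 and 3185 UMIs. At 1000 UMIs, the cells with at least 5 genes carried 76.6% and 79.2% of the UMIs of the 52 genes. They held 14.8 and 14.4 such UMIs per cell. Detection went together for most genes. Of the cells with a cdk1 UMI, 82.0% in the mutant-labelled library and 83.7% in the wild-type-labelled library carried at least 4 others of the set, and for aspm the shares were 85.9% and 83.5%. For hmgb2a they were 20.6% and 26.1%, for hmgb2b 18.9% and 22.7%, and for lmnb1 23.1% and 26.5%. These 3 genes were thus found mostly outside the cells that carried the rest of the set. A gene found in many cells can only reach a low share, so the contrast with cdk1 and aspm does not show separate detection. Per cell, however, hmgb2a and hmgb2b together were higher in the cells with at least 5 genes. They had 10.81 and 10.82 UMIs per such cell, against 1.83 and 2.14 per other cell. These cells held 34.6% and 39.0% of their UMIs.

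Cells with at least 5 genes of the set often carried S phase genes too, since at least 3 of 71 S phase genes were found in 60.1% (57.8 to 62.4) of them in the mutant-labelled library and in 67.7% (66.1 to 69.2) in the wild-type-labelled library. Among the remaining cells the shares were 17.4% and 18.8%. These values describe cells picked by the set itself.

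Cells were also picked by 59 other G2/M genes, none of them in the set. Those genes were themselves lower over all cells (median log2 ratio -0.22), and a cell with less G2/M RNA is less likely to be picked, so number and level cannot be told apart in this way either. At least 3 of those genes were found in 2429 cells of the mutant-labelled library, 10.97% (10.6 to 11.4), and in 4340 cells of the wild-type-labelled library, 14.1% (13.8 to 14.5). Within these cells the 52 genes stood at 11223 CPM and 11038 CPM, a log2 ratio of 0.02 (0.02 to 0.03), beside a median of 0.09 over all genes there. None of 53 genes of the set with at least 100 UMIs was below 0.8-fold in these cells (8.14% of all genes were) and 5 were above 1.2-fold (26.8% of all genes were). Those 5 were ncapg (0.48), cks2 (0.45), ndc80 (0.29), spc25 (0.27) and kif23 (0.27). The lowest were tpx2 (-0.22, -0.27 to -0.17) and spc24 (-0.20, -0.29 to -0.12), so the spread between genes seen over all cells was also there within these cells. These cells held 77.0% and 78.3% of the UMIs of the 52 genes, so the values over all cells and within the picked cells share most of their molecules. The sign of the small sum depended on the rule, as it was -0.07 in cells with at least 2 of the other genes. In the remaining cells the 52 genes were at 546 CPM and 707 CPM (-0.37).

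**Figure D2:**
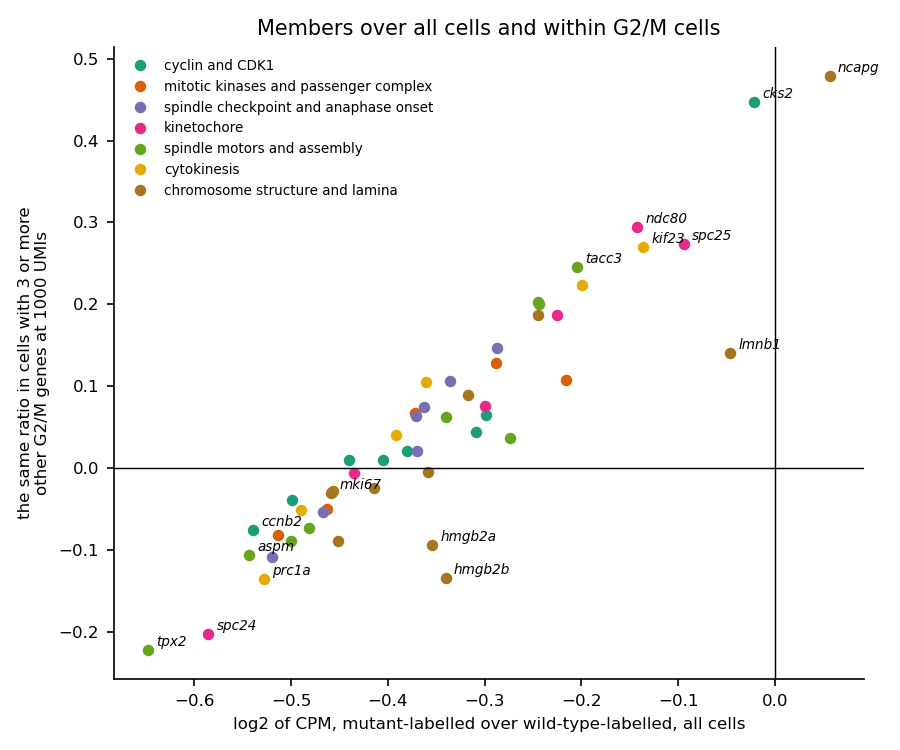
Log2 ratio of CPM, library labelled mutant over library labelled wild-type, over all cells (horizontal axis) and within cells that carried at least 3 other G2/M genes (vertical axis), 1 point per gene of the set averaging 5 CPM or more, coloured by role. ncapg (0.06 and 0.48) and tpx2 (-0.65 and -0.22) are at opposite ends on both axes.

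Cell types were gated by marker genes, of which none belongs to the set, and 19 types had at least 50 cells in each library, with rods and cones merged into photoreceptors. The level of the 52 genes was lower in the mutant-labelled library in 15 of these types, with the interval below 0 in 13, and higher in 4, with the interval above 0 in 2. The interval counts UMIs as independent, although few cells hold most of them. Neural progenitors with her and Notch pathway genes had the highest level, 6347 CPM in the mutant-labelled library and 8000 CPM in the wild-type-labelled library (-0.33, -0.35 to -0.32), and 29 of 53 genes were below 0.8-fold (7.11% of all genes). At 1000 UMIs, 31.2% (28.6 to 33.9) and 40.2% (38.0 to 42.5) of these progenitors carried at least 5 genes. aspm, at 202 and 312 CPM, had the lowest ratio in them (-0.63, -0.71 to -0.55), and ncapg, at 113 and 91.2 CPM, the highest (0.31, 0.19 to 0.44). Progenitors of the retina and ciliary margin, of which 124 and 121 were gated with markers that include the G1 cyclin gene ccnd1, were at 5696 and 5889 CPM (-0.05, -0.10 to 0.00), with 10 of 44 genes below 0.8-fold (17.4% of all genes) and 10 above 1.2-fold (35.1% of all genes). Of the retinal and ciliary margin progenitors, 40.3% (31.6 to 49.5) and 59.5% (50.2 to 68.3) carried at least 3 other G2/M genes. Within those 50 and 72 cells the 52 genes were at 10279 and 7920 CPM (0.38, 0.32 to 0.43). The near-equal sums thus went with a lower share of such cells and a higher level in them in the mutant-labelled library. In the progenitors with her genes, ncapg was the 1 gene above 1.2-fold (31.2% of all genes).

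Radial glia, which line the ventricles and can divide, had the lowest ratio of the 19 types. Cells that also passed the gate of progenitors with her genes were counted with those progenitors. The radial glia here are therefore only those outside that gate. The 52 genes were at 1181 CPM in 771 radial glia of the mutant-labelled library and at 2717 CPM in 1155 of the wild-type-labelled library (-1.20, -1.26 to -1.15). Of 46 genes with at least 100 UMIs, 43 were below 0.8-fold (14.8% of all genes), the others being lmnb1, spc25 and ncaph. The lowest were ccnb1, at 12.1 and 72.0 CPM (-2.58, -3.09 to -2.10), cdc20, the activator of the anaphase-promoting complex, at 7.35 and 43.0 CPM (-2.55, -3.22 to -1.94), and aurka, at 4.41 and 24.4 CPM (-2.47, -3.36 to -1.67). The 100 UMIs are summed over both libraries, so genes this low in 1 library can pass mainly through the other. The rank of these genes among the 46 was not tested. Few cells carried these transcripts, since 36 of 699 radial glia (5.15%, 3.63 to 7.06) and 104 of 1059 (9.82%, 8.10 to 11.8) held at least 5 genes. Radial glia picked by the other G2/M genes were at 5061 CPM in 77 cells and 10597 CPM in 148 cells (-1.07). Among the 9 types with at least 20 picked cells in each library, the level in picked cells was lower in the mutant-labelled library in 4 and higher in 5, and the log2 ratios ran between -1.07 in radial glia and 0.73 in basal epidermis.

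In cranial mesenchyme, chondrocytes and periderm the set was lower as well. Cranial mesenchyme was at 2738 CPM in the mutant-labelled library and 3728 CPM in the wild-type-labelled library (-0.45, -0.47 to -0.42), with 38 of 53 genes below 0.8-fold (7.74% of all genes) and at least 5 genes in 10.0% (8.78 to 11.3) and 14.0% (12.6 to 15.5) of cells. Chondrocytes, the cartilage cells, were at 732 and 1246 CPM (-0.77, -0.83 to -0.71), with 33 of 37 genes below 0.8-fold (11.8% of all genes) and at least 5 genes in 26 of 926 and 69 of 1076 cells, 2.81% (1.84 to 4.09) and 6.41% (5.02 to 8.05). kif11, a spindle motor, had the lowest ratio in chondrocytes, at 10.5 and 31.3 CPM (-1.58, -2.05 to -1.12). lmnb1, at 80.7 and 85.7 CPM, was near 0 there (-0.09, -0.29 to 0.11). Periderm, the outer skin layer, was at 1111 and 1878 CPM (-0.76, -0.81 to -0.70), with 43 of 48 genes below 0.8-fold (7.78% of all genes).

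Macrophages, microglia and endothelium were also lower. Macrophages and microglia were at 2415 CPM in 136 cells of the mutant-labelled library and 3277 CPM in 143 cells of the wild-type-labelled library (-0.44, -0.51 to -0.37), with 22 of 31 genes below 0.8-fold (10.4% of all genes). Vascular endothelium was at 2038 and 2919 CPM (-0.52, -0.61 to -0.43), with 8 of 12 genes below (11.1% of all genes). This rested on few cells, and the share of endothelial cells with at least 3 other G2/M genes was not lower. It was 17.2% (11.2 to 24.6) from 23 cells and 13.5% (8.22 to 20.5) from 18 cells. Those cells were at 7180 and 12927 CPM. In skeletal muscle the set was at 878 and 1099 CPM (-0.32, -0.40 to -0.25), with 10 of 16 below (15.6% of all genes). The retinal interneurons and ganglion cells, which have left the cycle, were at 441 and 550 CPM (bipolar cells, -0.32, -0.43 to -0.20, with 4 of 8 below, 9.49% of all genes) and at 429 and 627 CPM (ganglion cells, -0.55, -0.66 to -0.44, with 3 of 6 below, 8.27% of all genes). Retinal pigment epithelium, at 295 and 630 CPM (-1.10, -1.34 to -0.86), held 0 and 3 cells with at least 5 genes. In the pigment cells the intervals included 0, with iridophores at 0.02 (-0.10 to 0.14), melanophores at 0.20 (-0.03 to 0.44) and xanthophores at -0.13 (-0.51 to 0.25).

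Neurons were low in both libraries, at 622 CPM in the mutant-labelled library and 750 CPM in the wild-type-labelled library (-0.27, -0.30 to -0.24), and 25 of 52 genes were below 0.8-fold (8.46% of all genes). Basal epidermis went the other way, at 1972 and 1444 CPM (0.45, 0.37 to 0.53), and 12 of 17 genes were above 1.2-fold (19.8% of all genes) and 2 below 0.8-fold (10.5% of all genes). ube2c there was at 121 and 48.9 CPM (1.31, 0.91 to 1.72). This rested on few cells, as 21 of 182 and 15 of 196 basal cells held at least 5 genes and the intervals of these shares overlapped (7.29 to 17.1% and 4.35 to 12.3%). Erythrocytes were at 1298 and 1089 CPM (0.25, 0.10 to 0.41), with 6 and 8 such cells, and their log2 ratio was -0.0026 when no doublets were removed. Over the 19 types the share of cells with at least 5 genes was lower in the mutant-labelled library in 16 and higher in 3, and the intervals were apart in 4. Cells that passed no gate, 6994 and 10764 in number, held 27.6% of the UMIs of the 52 genes in each library.

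**Figure D3:**
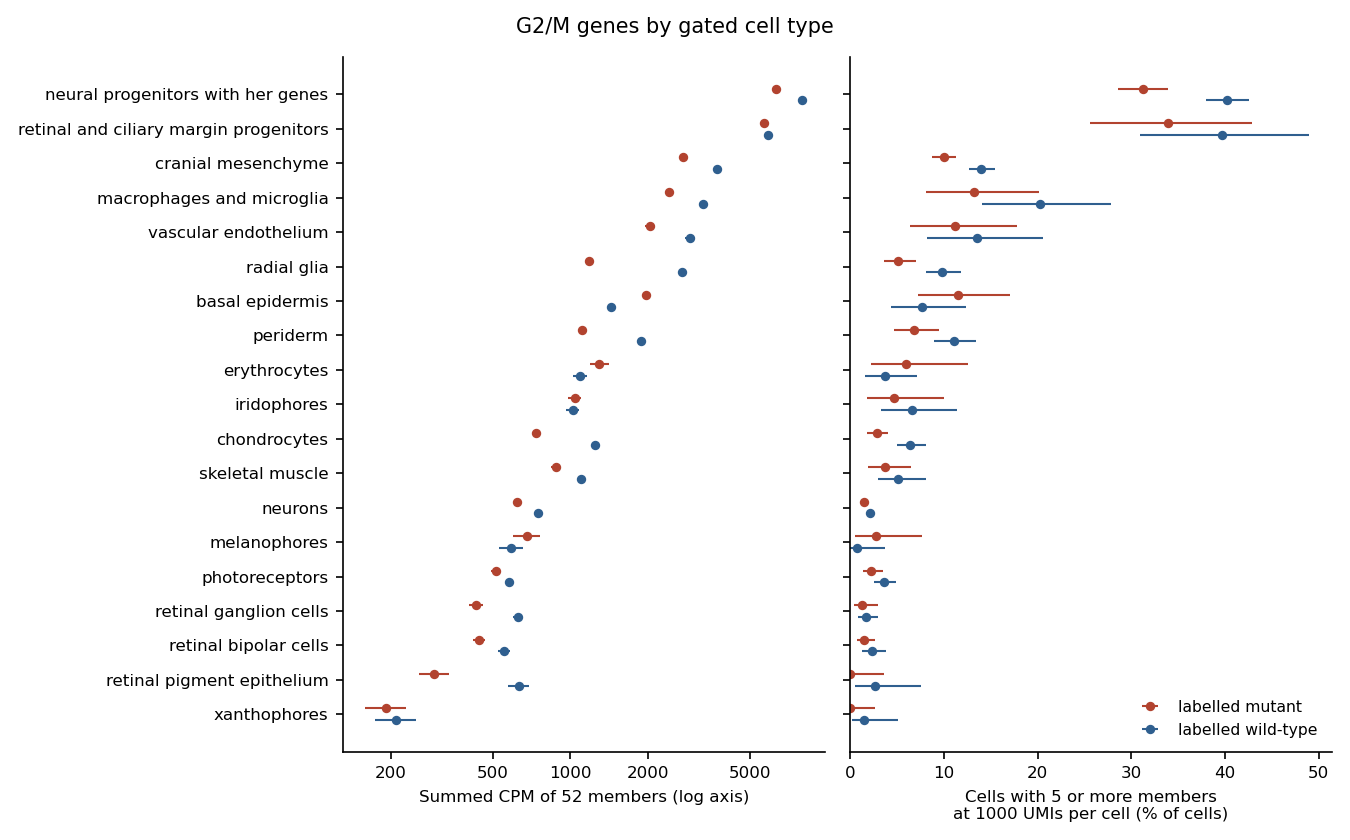
Level of the 52 genes (left, summed CPM on a log axis) and share of cells with at least 5 of them at 1000 UMIs per cell (right, % of cells) in 19 gated cell types, in the library labelled mutant (red) and the library labelled wild-type (blue). Points are pooled values and bars 95% counting intervals. Progenitors with her genes are at the top of the left panel (6347 and 8000 CPM), and radial glia are the widest pair (1181 and 2717 CPM).

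Mature photoreceptors do not divide, and the level of the set in gated photoreceptors was examined with its background in view. The gated rods, however, carried the 52 genes at 3428 CPM in the mutant-labelled library and 1722 CPM in the wild-type-labelled library, so the gated class as a whole is not a measure of background. Rods here are cells in the rod gate but not the cone gate, and cones the reverse. Cells in both gates counted only as photoreceptors. The gates found 904 photoreceptors in the mutant-labelled library and 1160 in the wild-type-labelled library. The 52 genes were at 511 CPM and 577 CPM in them, 24.3% (23.3 to 25.3) and 21.2% (20.4 to 22.0) of the level in all other cells. Of 19 genes with at least 100 UMIs in photoreceptors, 8 were below 0.8-fold between the libraries (10.3% of all genes) and 1 was above 1.2-fold (17.8% of all genes). The signal was concentrated in few cells. Only 41 and 66 photoreceptors held at least 5 of the 52 genes before thinning, and these 4.54% and 5.69% of cells carried 71.0% and 72.8% of the UMIs. In 52.9% and 50.4% of photoreceptors none of the 52 genes was found. Photoreceptors with fewer than 5 of the 52 genes were at 157 and 168 CPM, 7.44% and 6.16% of other cells, a low level that the choice of cells by these same genes helps to fix, since the other cells were not filtered. With no doublets removed, photoreceptors were at 37.2% and 28.1% of other cells, and the part of remaining doublets in the result was not tested.

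Rods, few in number, held 760 of the 2238 UMIs in the mutant-labelled library and 383 of the 2942 UMIs in the wild-type-labelled library. The 55 rods of the mutant-labelled library were at 3428 CPM and the 62 of the wild-type-labelled library at 1722 CPM (0.99, 0.81 to 1.17), with at least 5 genes at 1000 UMIs in 8 of 51 and 8 of 56 cells, 15.7% (7.02 to 28.6) and 14.3% (6.37 to 26.2). The 720 and 957 cones were at 399 and 620 CPM (-0.64, -0.74 to -0.54), with 9 of 13 genes below 0.8-fold (9.19% of all genes). Their log2 ratio was 0.10 when cells were removed only down to the numbers of the study, so its direction depended on how doublets were treated.

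As a gauge of free RNA, 13 cone markers were summed in the progenitors with her genes, where they should be absent. They were at 133 CPM in the mutant-labelled library and 152.5 CPM in the wild-type-labelled library, 2.198% and 2.289% of their level over all cells. Cells that pass both gates were left out, which lowers this gauge. In photoreceptors with fewer than 5 other genes of the set, the 47 genes other than hmgb2a and hmgb2b that averaged 10 CPM or more over all cells had a median of 3.99% and 4.12% of their level in other cells. Of these 47 genes, 12 in the mutant-labelled library and 3 in the wild-type-labelled library had 3 or fewer UMIs there. The photoreceptors used were chosen for few genes of the set, which lowers genes detected together with the others. aspm, for example, was at 1.46% (0.40 to 3.74) and 1.97% (0.90 to 3.74), mki67 at 3.17% and 3.83%, and cdk1 at 4.74% and 3.12%. Over all photoreceptors the lowest relative levels were those of ndc80 (11.3% and 16.7%), spc24 (12.5% and 16.1%), aspm (15.6% and 14.5%), ccna2 (13.6% and 17.3%) and bub1bb (19.6% and 13.4%).

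A few genes of the set were higher than the rest in photoreceptors relative to other cells. hmgb2a was at 1598 CPM in photoreceptors of the mutant-labelled library and 1505 CPM in those of the wild-type-labelled library, 96.0% (93.7 to 98.3) and 70.1% (68.5 to 71.7) of other cells. It was found in 60.3% and 58.3% of photoreceptors at 1000 UMIs, against 45.0% and 47.8% of all cells. In photoreceptors with fewer than 5 other genes it remained at 79.8% and 57.0%. Its paralog hmgb2b was at 418 and 532 CPM, 29.8% and 29.9% of other cells. The paralogs thus differed in photoreceptors relative to other cells. The part of free RNA in these levels was not tested.

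hmmr, which encodes a microtubule-associated protein of the spindle that also binds hyaluronan, was at 26.0 CPM in photoreceptors of the mutant-labelled library and 24.3 CPM in those of the wild-type-labelled library, 109% (89.3 to 131) and 71.8% (59.6 to 85.9) of other cells. In photoreceptors with fewer than 5 other genes it was at 87.6% (69.9 to 108) and 58.3% (47.0 to 71.5), from 87 UMIs in 68 cells and 94 UMIs in 79 cells. This was unlike the other spindle genes, of which nusap1, for example, was at 26.5% and 16.1% over all photoreceptors. birc5a was at 59.2% (48.8 to 71.1) and 36.8% (29.9 to 44.8), lmnb1 at 45.0% and 40.2%, and kif22, a chromosome-binding motor, at 36.3% and 27.6%. With at least 5 other genes excluded, birc5a was at 35.2% and 21.0%, lmnb1 at 36.1% and 32.0%, and kif22 at 19.8% and 14.3%.

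**Figure D4:**
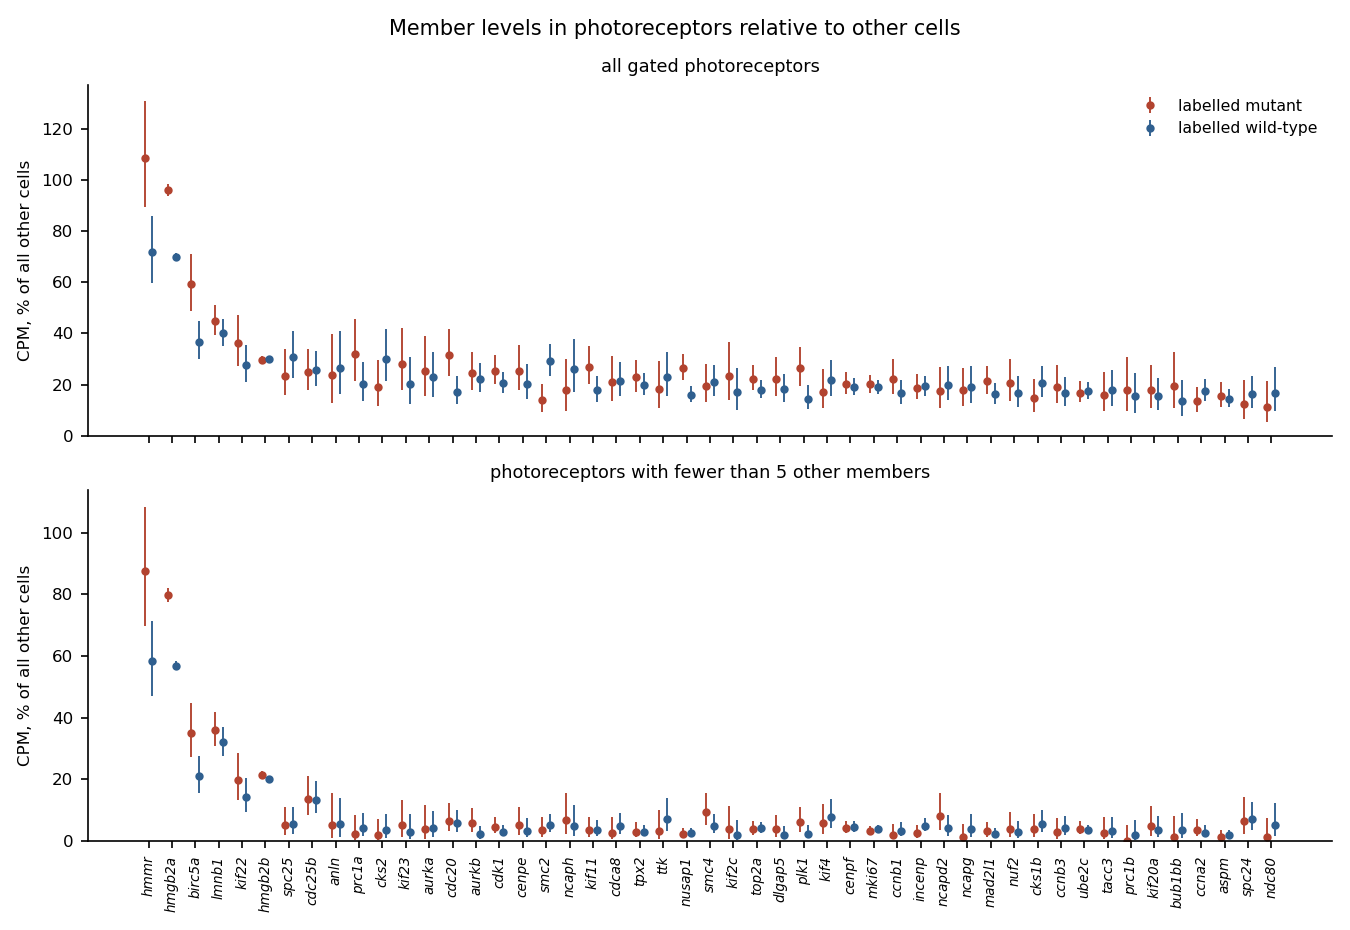
Level of each gene in gated photoreceptors as % of its level in all other cells of the same library, for the 49 genes of the set that averaged 10 CPM or more, in the library labelled mutant (red) and the library labelled wild-type (blue). Top, all photoreceptors; bottom, those with fewer than 5 other genes of the set; bars are 95% counting intervals. hmmr and hmgb2a stand apart in both panels, while most genes are near 20% at the top and near 4% at the bottom.

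The genes hmgb2a, hmgb2b, hmmr and lmnb1 had different patterns in other cell types that are postmitotic when mature. hmgb2a was at 2230 CPM in retinal bipolar cells of the mutant-labelled library and 2216 CPM in those of the wild-type-labelled library, above the photoreceptors, but at 469 and 533 CPM in retinal ganglion cells and 545 and 708 CPM in neurons. hmgb2b was lower in bipolar cells than in ganglion cells or neurons, at 718 and 860 CPM in bipolar cells, 1095 and 1116 CPM in ganglion cells and 1001 and 1187 CPM in neurons. hmmr was at 2.56 and 5.39 CPM in bipolar cells, 1.78 and 5.25 CPM in ganglion cells and 5.65 and 7.68 CPM in neurons, all below its 24.0 and 23.8 CPM in cones. lmnb1 was at 68.4 and 67.6 CPM in bipolar cells, 119.9 and 123 CPM in ganglion cells and 103.2 and 106.3 CPM in neurons, against 52.3 and 48.3 CPM in photoreceptors. Between the libraries, hmgb2a in photoreceptors had a log2 ratio of 0.09 (0.04 to 0.13), hmgb2b -0.35 (-0.43 to -0.26), hmmr 0.10 (-0.28 to 0.48), birc5a 0.46 (0.06 to 0.86) and smc2, the lowest, -1.49 (-2.17 to -0.85). These ratios include the few rods. In rods alone, hmgb2a was at 0.87 (861 and 474 UMIs) and birc5a at 1.72 (23 and 7 UMIs). There hmgb2b was at 0.33, hmmr at 1.09 and smc2 at -0.13. Ratios of photoreceptors without rods are not given here, so the small ratio of hmgb2a may rest on them.

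Other genes of the cell cycle, from lists written by known role, were examined over all cells. Of 58 other G2/M genes with at least 100 UMIs, 18 were below 0.8-fold (7.34% of all genes were) and 0 above 1.2-fold (18.8% of all genes were), with a median of -0.22. The 3 farthest from 0 were stmn1a, a microtubule-destabilising gene, at 247 CPM in the mutant-labelled library and 387 CPM in the wild-type-labelled library (-0.65), cep55l (-0.62), which acts in abscission, and fbxo5 (-0.54), an inhibitor of the anaphase-promoting complex. Of 71 S phase genes, 26 were below and 0 above, beside the same shares of all genes, with a median of -0.25. cdca7a, at 40.7 and 68.0 CPM (-0.74), dut, the dUTPase gene, at 146.5 and 235.5 CPM (-0.68), and hells, a chromatin remodeller, at 50.2 and 76.5 CPM (-0.61), were the farthest from 0.

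Inhibitors of cyclin-dependent kinases and related arrest genes went the other way as a list, though not each of them. Of 16 with at least 100 UMIs, 0 were below 0.8-fold (7.34% of all genes were) and 8 above 1.2-fold (18.8% of all genes were). The median log2 ratio was 0.30 and the lowest -0.29. cdkn1a, the p21 gene, was at 103 CPM in the mutant-labelled library and 28.1 CPM in the wild-type-labelled library (1.88, 1.82 to 1.93), ccng1, the gene of cyclin G1, at 807 and 229.7 CPM (1.81, 1.79 to 1.83), and gadd45ba, a stress-induced gene, at 66.2 and 37.3 CPM (0.83, 0.78 to 0.88). The transcriptional regulators of G2/M genes moved less, with 3 of 25 below (7.34% of all genes) and 2 above (18.8% of all genes) and a median of -0.03. Of these, mybl2b, which encodes the B-Myb subunit of the complex that activates mitotic genes, was at 9.88 and 12.7 CPM (-0.36), e2f8, a repressor of the E2F family, at 10.9 and 14.1 CPM (-0.37), and nfybb, a subunit of the CCAAT-binding factor, at 18.3 and 15.02 CPM (0.29).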

How the data were processed

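Single-cell RNA-seq was performed by the authors on 1 library per genotype with the 10x Genomics GEM-X 3' kit. The authors deposited unnormalised UMI counts for each gene and barcode, made with Cell Ranger (version 8.0.0 in the file headers) on GRCz11 per the labels. The methods name another version. Cells were filtered as in the study (500 to 20000 UMIs, 500 to 5000 genes, novelty of at least 0.8, at most 20% mitochondrial UMIs). Of 26454 and 36996 passing barcodes, 10% in each library were removed by a doublet score (share of simulated doublets, 2 per cell, among 90 neighbours in 30 components of 2000 variable genes). Removing down to the cell numbers of the study, as first planned, would have taken 0.234% of the mutant-labelled and 7.59% of the wild-type-labelled cells. This choice was therefore changed after seeing the data.

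Gates required at least 4 markers and 6 UMIs of a type. Of 283 markers of 31 types, 268 were found, and cells in more than 1 gate (1805 and 2446) were left out, apart from set precedences between related types. Cells in the gates of radial glia and of progenitors with her genes, for example, counted as the progenitors. Cells in both the rod and the cone gate were kept as photoreceptors, but counted neither as rods nor as cones. A gene counted as below 0.8-fold or above 1.2-fold only with at least 100 UMIs over both libraries. Intervals are exact (Poisson, Clopper-Pearson and conditional binomial, 95%). Thinning was without replacement to 1000 UMIs, which left out 1667 and 2618 shallower cells. The genes named were the 2 with most UMIs per role, the 4 lowest and 4 highest ratios, the 5 highest and 5 lowest in photoreceptors and the 3 farthest from 0 in each other list (mean of at least 10 CPM). Genes named for 1 cell type, and other members given as contrasts, were chosen after their values were seen. The members and lists were chosen with earlier results of these data known. Calculations were tested on simulated data, using scikit-learn 1.9.0, scipy 1.17.1, matplotlib 3.10.9, pandas 2.3.3, numpy 2.4.6 and Python 3.11.15. Alternatives covered cell and doublet filters, scaling, cell type makeup, depth, gates and thresholds. The study's test over single cells was not used, since cells of 1 library are not replicates. Sequences were not used here.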

Additional observations from a re-analysis of the deposited data

Results flagged for a closer look

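In basal epidermis and erythrocytes, of the 19 cell types, and in rods, which were merged with cones into photoreceptors there, the summed level of the 52 genes was higher in the library labelled mutant, with the interval above 0, while most types were lower there. The log2 ratios were 0.45 in basal epidermis, 0.25 in erythrocytes and 0.99 in rods. In erythrocytes the sign turned when no doublets were removed. The difference of these types from the others was not tested, since there is 1 library per genotype. Cells with at least 5 genes of the set numbered 21 and 15 in basal epidermis, 6 and 8 in erythrocytes, and 8 and 8 in rods, in the mutant-labelled and the wild-type-labelled library.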

How the results depend on the processing

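No paired analysis was possible because each genotype has 1 library, and no replicate could be left out. The main count of genes below 0.8-fold was 33. It was 19 with every deposited barcode and 0 on the scale of the study (mean of depth-scaled counts plus 1, median log2 ratio -0.0712), which shrinks low genes by construction. In the other settings it lay between 23 and 40. The share of all genes past the fold in each of these settings is not given here. These counts therefore do not show how the set stood beside other genes. The sums of all 54 and of the 52 genes stayed below 0: -0.30 and -0.30 with every barcode, -0.35 and -0.34 without doublet removal, -0.35 and -0.35 with the study's cell numbers, -0.39 and -0.42 with a further 10% removed, -0.43 and -0.44 centred on all genes, -0.39 and -0.41 without abundant genes, and -0.32 and -0.33 with wild-type shares of cell types. No gene below 0.8-fold turned above 0 in any of these 7 settings. ncapg was at 0.06, and at -0.01 when centred. The share of cells with at least 5 genes was lower in the mutant-labelled library throughout: 8.92% and 11.7% with every barcode, 4.92% and 6.53% at 500 UMIs, 11.99% and 16.7% at 2000 UMIs, 14.96% and 18.5% unthinned, 11.5% and 15.4% with 3 genes, and 4.16% and 5.64% with 10. The photoreceptor level was 30.9% and 24.7% of other cells with every barcode, 37.2% and 28.1% without doublet removal, 37.3% and 23.8% with the study's cell numbers, 24.6% and 19.1% with a further 10% removed, 24.2% and 20.3% with a stricter gate, and 7.44% and 6.16% without photoreceptors holding 5 genes. Within cells of other G2/M genes the ratio was -0.0699 with at least 2 genes, with the sign turned, and 0.0524 with at least 5. Erythrocytes were at -0.0026 without doublet removal and cones at 0.10 with the study's cell numbers, both with the sign turned. The settings with the study's cell numbers, the mean over cells with nothing added (23 genes) and the photoreceptors without such cells were added after seeing the data. Depth limits birc5b and the types with few cells. The cause of each change was not tested.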
